A study of Arabidopsis thaliana and Marchantia polymorpha with 6 samples.

Results

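Light-grown seedlings need HY5, a transcription factor of the bZIP class, to stop stretching and turn green. PIF4 belongs to the bHLH class and drives stem and petiole elongation under shade or high temperature. Both are known to hold DNA sites built around an ACGT core, of which the G-box CACGTG is the best known, so the proteins can meet at the same element. Several sites of one factor can also stand close together in a genome, and such groups of sites are described here for HY5 of Arabidopsis thaliana. A run was defined as 3 or more AtHY5 events in which each gap between successive centres was at most 1000 bp. The pericentromeres (11.5 to 17.7 Mb of chromosome 1, 1.1 to 7.2 of chromosome 2, 10.3 to 17.3 of chromosome 3, 1.5 to 6.3 of chromosome 4 and 9.0 to 16.0 of chromosome 5) and the first 20 kb of chromosome 2 were left out. The AtHY5 list held 16825 events, of which 14569 lay outside these regions. They formed 518 runs with 1726 events, 2002 pairs with 4004 events, and 8839 single events with no other within 1000 bp.

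The events come from DNA affinity purification sequencing (DAP-seq), in which a protein made in Escherichia coli and fixed to amylose beads picks fragments out of purified genomic DNA. The DNA was taken from Col-0 seedlings aged 10 days and was broken to a mean of 200 bp. AtHY5 and AtPIF4 each had 1 library, prepared in the same way, so no value has a replicate error and no difference was tested over replicates. The DNA carries no chromatin, so an event is a place held in a test tube and not one shown to be held in a seedling. Positions are on the TAIR10 build as the lists give them, and each run is given by the outer limits of its event intervals. Each event is an interval of 200 bp around a centre, with a score given by the authors' caller, whose unit is not stated in the sources used here. Scores are compared only within a list, and the percentile of a score is its rank among the events of that list outside the regions left out. Read depth is unknown. The runs were chosen by the positions of AtHY5 events, so their size, spacing and AtHY5 scores are descriptions, while the AtPIF4 list took no part in the choice.

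Most runs were short. There were 383 runs of 3 events (73.9%), 107 of 4, 20 of 5, 7 of 6 and 1 of 7. The span from the first to the last centre had a median of 1089 bp, with quartiles of 840 and 1419 bp, and ran from 193 to 3456 bp. In 221 runs (42.7%) it was at most 1000 bp, and in 29 it was over 2000 bp. Runs held 11.8% of the AtHY5 events outside the regions left out. The share was 13.5% on chromosome 5 (95% Wilson interval 12.4 to 14.7) and 12.8% on chromosome 1 (11.8 to 13.8), against 8.73% on chromosome 3 (7.55 to 10.1). Chromosome 2 stood at 9.86% and chromosome 4 at 11.8%. The lowest score of a run event also differed. It was 94.0 on chromosome 3 and 73.4 on chromosome 2, and run events of chromosomes 1, 4 and 5 reached lower scores. Whether the shares, or the counts per bin below, would differ between chromosomes at an equal lowest score was not tested. Wilson intervals here and below cover counting error only, and they treat events as independent, which members of a run are not. Of bins of 1 Mb, 3 on chromosome 1 were the fullest, with 13 runs each, and they held 215 to 239 AtHY5 events.

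**Figure D1:**
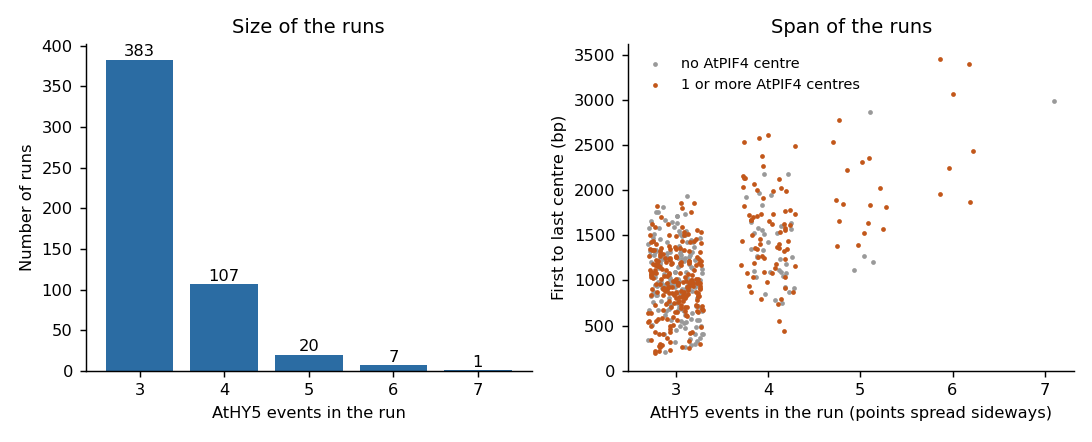
Left, number of runs by the AtHY5 events they hold. Right, span of each run in bp by its size, coloured by whether an AtPIF4 centre lies in the run: 383 of 518 runs have 3 events, and spans reach from 193 to 3456 bp.

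Gaps inside runs covered the whole allowed range. The 1208 gaps had a median of 489 bp, with quartiles of 225 and 733 bp, and the smallest was 33 bp. The most filled class was 101 to 200 bp with 191 gaps (15.8%), and every later class of 100 bp held 8.53% to 11.8%. Only 80 gaps (6.62%) were at most 100 bp. Pairs showed the same peak, with 16.4% of 2002 gaps between 101 and 200 bp, but had a lower median of 423 bp and fewer gaps near the limit, with 6.54% against 8.61% between 901 and 1000 bp. In 234 runs (45.2%) at least 1 gap was at most 200 bp, which is no more than the mean fragment length, and in 17 runs every gap was. At the limit, the largest gaps inside runs were 1000, 998 and 998 bp, and the smallest gaps just over it were 1001, 1001 and 1002 bp. A further event lay over 1000 and up to 1100 bp from 107 pairs, which a slightly wider limit would make into runs.

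**Figure D2:**
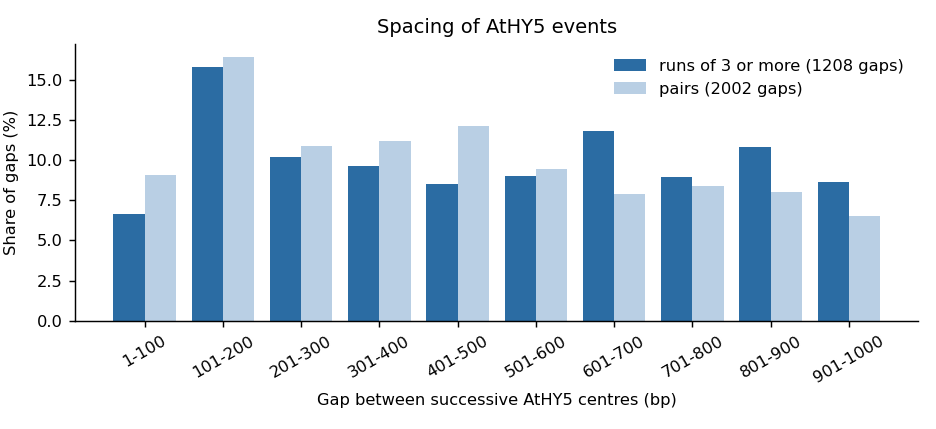
Share of gaps (%) in classes of 100 bp between successive AtHY5 centres, for runs of 3 or more events and for pairs. Both have their fullest class at 101 to 200 bp, with 15.8% and 16.4%.

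The members of a run usually differed in score. The highest score of a run was a median of 2.94 times its lowest, with quartiles of 1.94 and 5.06, and the ratio was over 10 in 44 runs. In 224 runs (43.2%) one event held more than all others of the run together. Of the 383 runs of 3 events, the middle one had the highest score in 147, or 38.4% (33.6 to 43.3). Every member scored above the median of the list, 117, in 110 runs, and none did in 41. Run events had a median score of 139, pair events 129 and single events 112. A score of 347 or more, which marks the highest 10% of these events, was found for 18.7% of run events, 12.6% of pair events and 7.15% of single events. These scores come from the list that chose the runs.

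The longest run by number of events lay on chromosome 3 at 1959350 to 1962538. Its 7 events scored 1412, 106, 382, 139, 753, 117 and 179 from left to right. It was at once one of the widest runs, and it is unlike most others in that no centre lay in a protein-coding gene and no AtPIF4 event fell inside. It overlapped the transcribed pseudogene AT3G06433, and the nearest protein-coding gene, PPR2, was 1146 bp away. A second large run with no protein-coding gene, with 6 events at 19448538 to 19451169 of chromosome 1, overlapped the pseudogene AT1G52210. Its highest AtHY5 score was 224, and 1 AtPIF4 event of score 189 lay 1 bp from a member.

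The 6 other runs of 6 events covered protein-coding genes and all held AtPIF4 events. AT5G17980 on chromosome 5 (5954439 to 5956511) was the only gene with all 6 centres of such a run inside it, with AtHY5 scores of 60, 415, 608, 423, 345 and 264. Its AtPIF4 events scored 244, 985 and 304, and the strongest of these lay 238 bp from the nearest AtHY5 centre. So the runs of both proteins can share a gene without sharing every position. KCS6, which encodes an enzyme that lengthens fatty acids for cuticular wax, lay under a run of 3402 bp with a highest AtHY5 score of 503 and AtPIF4 events of 161 and 126. MEE62 lay under the widest run of all, 3456 bp, with a highest score of 471. ARA12, a gene for a subtilisin-like protease that acts in seed coat mucilage, lay under a run of 3066 bp on chromosome 5 (26871236 to 26874501). Its AtHY5 scores were 110, 67.1, 438, 98.5, 234 and 135, and its 4 AtPIF4 events scored 116, 224, 110 and 266. All 4 AtPIF4 centres lay 1 to 11 bp from an AtHY5 centre, and the AtHY5 events of score 67.1 and 234 had none within 100 bp. AT3G27250 had a highest AtHY5 score of 678, and a run over AT2G18340 and the homeobox gene HB24 had 368.

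The 5 runs with the highest median scores spanned 223 to 1392 bp. The first, at 23315709 to 23316131 of chromosome 3, packed scores of 1490, 2300 and 719 into 223 bp over the overlapping genes AT3G63093 and AT3G63095. The next, over AT5G42280 at 16905960 to 16907516 of chromosome 5, held the highest score of any run event, 6491, beside scores of 78.9, 681 and 2045. AT2G03000 (chromosome 2, 875521 to 877112) had 5 events of 1838, 1846, 1316, 560 and 200, and its single AtPIF4 event, of score 212, lay 1 bp from the weakest of them and 87 bp from the next weakest. AT5G43540 with AT5G43550 followed with 1213, 1401 and 179, and then CYP86A4 (chromosome 1, 219191 to 220464) with 96, 1466 and 1165. The 3 strongest events of AT2G03000 thus had no AtPIF4 event within 100 bp, while both strong events of CYP86A4 had one. Among the widest runs, one of 2861 bp on chromosome 5 (7365088 to 7368148) reached over 3 genes, OFP10, CAF1b, which encodes a subunit of an mRNA deadenylase, and MS1, a regulator of pollen and tapetum development. Its highest AtHY5 score was 547, over CAF1b, and the nearest AtPIF4 event was 2789 bp from a member. Also among the 10 runs with the most events, AT3G56810 had 5 with a highest score of 1875 and no AtPIF4 event.

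The AtPIF4 list was then set against the runs. An AtPIF4 centre lay inside the span, widened by 100 bp on each side, in 311 of 518 runs, or 60.0% (55.8 to 64.2). There were 184 runs with 1 AtPIF4 centre, 98 with 2, 25 with 3, 3 with 4 and 1 with 5, and 207 had none. The share was 56.7% for runs of 3 (51.7 to 61.5), 66.4% for runs of 4 (57.0 to 74.6) and 82.1% for runs of 5 or more (64.4 to 92.1), and longer runs also offer more length. In all, 472 of the 5655 AtPIF4 events outside the regions left out, or 8.35% (7.65 to 9.10), lay in runs. That is 0.674 per kb (95% Poisson interval 0.615 to 0.738), against 0.0878 per kb (0.0707 to 0.108) from 1000 to 2000 bp beyond the runs and 0.0788 (0.0693 to 0.0893) from 2000 to 5000 bp. The runs were chosen for dense AtHY5 events, and 17.3% of single AtHY5 events also had an AtPIF4 centre within 100 bp. AtPIF4 density around pairs and single events was not computed, so an excess over the flanks is not shown to be particular to runs. Inside the runs, 434 of 472 AtPIF4 events, or 91.9% (89.1 to 94.1), were within 100 bp of a member, a distance that takes in 46.5% of the widened run length. Their density was 1.33 per kb (1.21 to 1.46) there and 0.102 per kb (0.0718 to 0.139) in the rest of the runs.

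Counted per AtHY5 event, which removes the difference in length, 475 of 1726 run events had an AtPIF4 centre within 100 bp. That is 27.5% (25.5 to 29.7), where all AtHY5 events outside the regions left out give 20.0%. It was 22.6% (21.3 to 23.9) for pairs and 17.3% (16.5 to 18.1) for single events. Run events stood 10.2 percentage points above single events (95% Newcombe interval 8.0 to 12.5) and 4.92 above pair events (2.47 to 7.42). By size, the share was 26.9% in runs of 3, 28.3% in runs of 4 and 30.2% in runs of 5 or more, and these 3 intervals overlapped. The 475 members outnumber their 434 AtPIF4 events because an AtPIF4 event can serve neighbouring members. Members of a run are thus not independent, and the intervals for run events may be too narrow. With AtHY5 events less than 100 bp apart counted once, an alternative chosen after seeing the data, the difference from single events was 7.47 points (5.21 to 9.83). Whether these differences would recur in other libraries was not tested.

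AtHY5 score went with this share, and run events scored higher, so the shares were also read within 5 equal classes of AtHY5 score. In the highest class, from 224 up, an AtPIF4 event was near 46.2% of run events (42.0 to 50.5), 41.7% of pair events and 36.8% of single events (34.3 to 39.4). In the lowest class, up to 78.9, the shares were 18.3% (13.9 to 23.6), 11.0% and 9.19% (7.97 to 10.6). This class held no run events of chromosome 3, where the lowest scored 94.0, and those of chromosome 2 began at 73.4. Run events stood above single events in all 5 classes, by 9.07, 5.24, 3.80, 2.96 and 9.37 points from the lowest class to the highest. The highest class is wide, and scores within it were not equal. A score of 347 or more was found for 322 of its 528 run events and 632 of its 1376 single events. Events less than 100 bp apart were not counted once within the classes. Members of a run are treated as independent in the Newcombe intervals, so an interval without 0 is not a test. The Newcombe interval included 0 in the third (-0.528 to 8.75) and the fourth (-1.51 to 7.94). Against pair events the interval excluded 0 in the lowest class alone, at 7.29 points (2.3 to 13.0), and in the fourth class the difference was -0.934 (-5.96 to 4.47). A single AtHY5 event of high score was thus near AtPIF4 more often than a run event of low score.

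**Figure D3:**
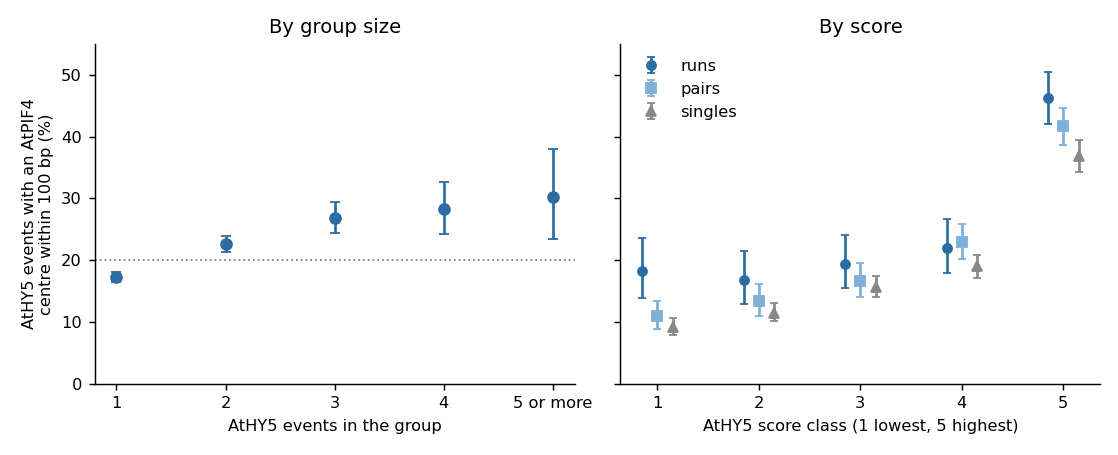
Share of AtHY5 events (%) with an AtPIF4 centre within 100 bp, by the number of AtHY5 events in the group (left, dotted line at 20.0% for all events) and by AtHY5 score class (right). Bars are 95% Wilson intervals: the share goes from 17.3% for single events to 30.2% in runs of 5 or more, and in each class the runs lie above the singles.

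Within a run, AtPIF4 events stood more often near the stronger members. The highest-scoring member had an AtPIF4 centre within 100 bp in 187 of 518 runs, or 36.1% (32.1 to 40.3), and the lowest-scoring one in 92, or 17.8% (14.7 to 21.3). Inner members had one in 30.1% (26.8 to 33.7) and outer members in 25.8% (23.2 to 28.5), and these intervals overlapped. At least 2 members were near AtPIF4 in 131 runs (25.3%), and all members were in 22 (4.25%). An AtPIF4 centre lay within 2 bp of 11.1% of run events, against 8.09% of all AtHY5 events outside the regions left out, and of the members with one near, 40.2% had it within 2 bp, against 41.2% for single events. From the other side, AtPIF4 events in runs had a median AtPIF4 score of 187 (quartiles 130 and 279). Those within 100 bp of pair events had 175 and those within 100 bp of single events 152. The 2843 outside runs with no AtHY5 centre within 100 bp had 135. The first class is formed more loosely, by the widened span, and 38 of its 472 events lay farther than 100 bp from a member. The AtPIF4 list formed 69 runs by the same definition. Of these, 34 (49.3%) overlapped an AtHY5 run, and they met 34 (6.56%) of the AtHY5 runs.

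The run with the most AtPIF4 events lay inside CYP86A2, which encodes a fatty acid omega-hydroxylase that makes monomers of cutin, on chromosome 4 (160941 to 162797). Its AtHY5 scores were 84.9, 220, 2407, 949 and 220, and its AtPIF4 scores 98.7, 645, 159, 239 and 177. Centres of the proteins were 1 or 2 bp apart at 3 members, including the strongest AtHY5 event, while the strongest AtPIF4 event stood 68 bp from a member. The AtPIF4 event of score 177 stood 224 bp from the nearest member. BXL2, which encodes a beta-xylosidase of the cell wall (chromosome 1, 565491 to 567503), had 5 AtHY5 events with a highest score of 583 and 4 AtPIF4 events with a highest score of 329. The strongest event of each protein there lay 1 bp apart. AT1G72100 had 4 events of each protein, with highest scores of 489 for AtHY5 and 404 for AtPIF4, the latter 113 bp from the nearest AtHY5 centre.

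**Figure D4:**
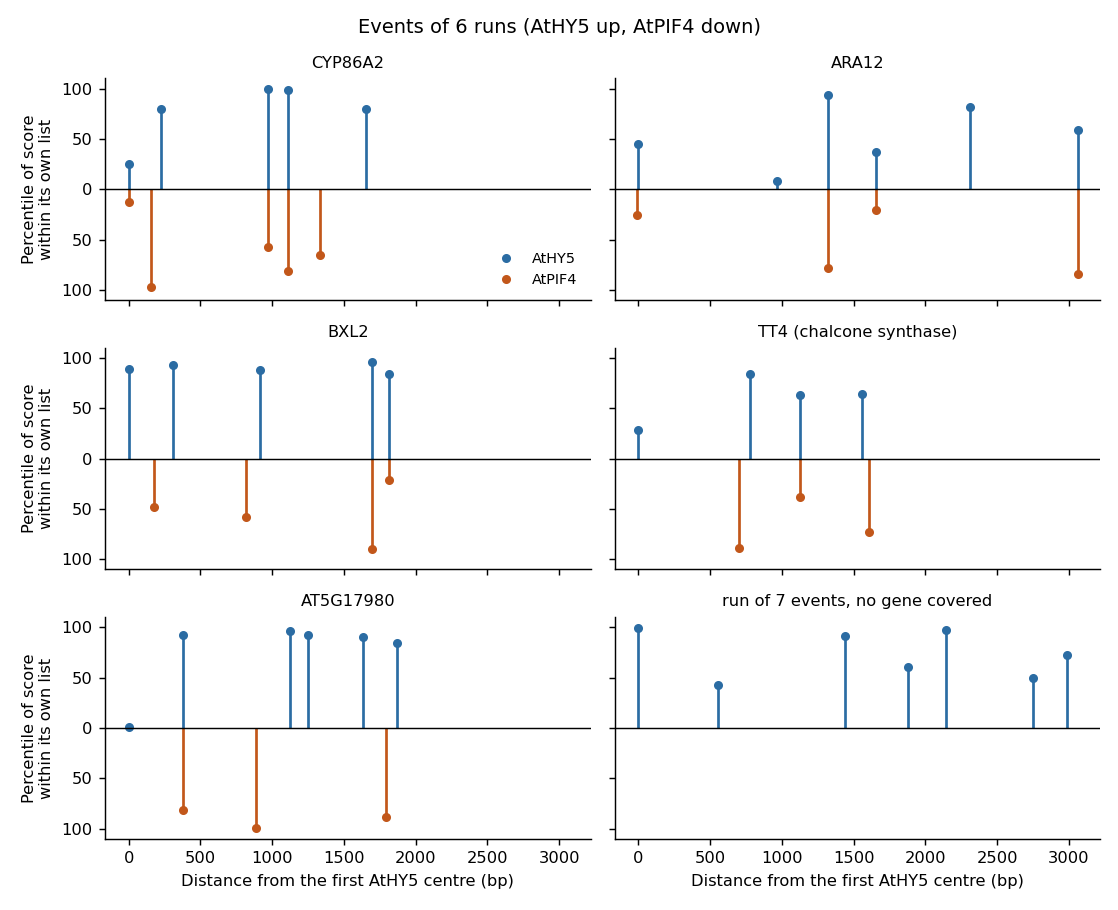
Events of 6 runs by distance in bp from the first AtHY5 centre, AtHY5 upwards and AtPIF4 downwards, with stem length giving the percentile of the score within its own list. AtPIF4 events stand at or beside AtHY5 members in 5 runs, and the run of 7 events on chromosome 3 has none.

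Genes were called covered when the gene body overlapped the span of a run. Scores given for a covered gene are those of its run, whose members need not all lie inside the gene. Of 24055 protein-coding genes outside the regions left out, 541 were covered, or 2.25%. Covered genes were not longer than others, with a median length of 1992 bp against 2123 bp for those not covered. A run covered 1 gene in 395 cases (76.3%), 2 genes in 61, 3 in 8, and none in 54. All centres lay inside the same gene in 228 runs (44.0%), inside genes of more than 1 in 42, and both inside and outside genes in 194 (37.5%). Run events lay inside genes in 74.3% (72.2 to 76.3), pair events in 72.3% (70.9 to 73.7) and single events in 66.3% (65.3 to 67.3). More than 1000 bp from any protein-coding gene lay 7.18% of run events and 12.4% of single events. Of the 54 runs without a gene, 25 were farther than 1000 bp from one, and 39 (72.2%, 59.1 to 82.4) held an AtPIF4 centre, against 57.0% (50.5 to 63.3) of the runs inside the same gene. These intervals overlapped. Runs inside genes of more than 1 stood at 59.5%, and runs both inside and outside genes at 60.3%. The gene table gives no strand or exons, so starts, introns and untranslated regions were not separated.

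Lists of light, clock, pigment, hormone and stress genes held few runs. Of 155 such genes outside the regions left out, 6 were covered (3.87%), close to the 2.25% of all protein-coding genes, so the count says nothing particular about them. None of 26 light signalling genes, 13 B-box genes, 18 light harvesting and photosynthesis genes or 9 housekeeping genes was covered. The lists do not hold every gene of these classes, so these counts concern the listed genes alone. UNE10, also known as PIF8 and given below, is a covered gene outside the light signalling list. Genes outside them, named after their values were seen, include the B-box genes BBX16 (AtHY5 score up to 360, 2 AtPIF4 events) and COL4 (up to 935, 2 AtPIF4 events), and the photosystem II gene PSBR (up to 739, 1 AtPIF4 event). Neither HY5 nor PIF4 was among the covered genes. The exceptions came from 5 lists. TT4, which encodes chalcone synthase, the entry enzyme of flavonoid synthesis and a textbook HY5 target, carried a run of 4 events on chromosome 5 (4488188 to 4489946) with AtHY5 scores of 89, 259, 147 and 151. AtPIF4 events of 322, 130 and 203 lay 72, 2 and 47 bp from its last 3 members, which are the 3 inside the gene.

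CKX5, a cytokinin oxidase gene (chromosome 1, 28316912 to 28318753), carried 5 events with scores of 207, 327, 84.3, 564 and 135, and an AtPIF4 event of 178 stood 29 bp from the second of them. Only the first 3 of these AtHY5 events lay inside the gene, so the strongest did not. TAA1, which encodes an aminotransferase of auxin synthesis (chromosome 1, 26606333 to 26607724), had scores of 327, 143 and 105, all inside the gene, and an AtPIF4 event of 104 at 142 bp from the first. The other 3 had no AtPIF4 event in the run. BOA, a relative of the evening clock gene LUX (chromosome 5, 24003673 to 24005028), had scores of 567, 63.3 and 150, of which the first lay outside the gene. BETA-OHASE 1, a carotene hydroxylase gene (chromosome 4, 13093084 to 13094773), had 107, 310 and 94, of which only the last lay inside the gene. CBF1, a regulator of cold responses (chromosome 4, 13021202 to 13022985), had 137, 72.5, 91.7 and 101, of which all but the first lay below the median of the list. The first was also the only one outside the gene. In the run of BETA-OHASE 1 the middle event was the only one above the median of the list, while that of BOA had 2 above it and that of CBF1 had 1.

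Names of gene families were counted next, and a name can miss members of a family or take in other genes. The names were chosen after the covered genes had been seen, so the counts are descriptions, to be read beside the 2.25% of all protein-coding genes. All 5 genes of the CYP86A family were covered, each with all centres inside the gene and each with AtPIF4 events, which 60.0% of all runs held. Their products are fatty acid omega-hydroxylases of cutin and suberin synthesis. CYP86A2 and CYP86A4 are given above. CYP86A7 (chromosome 1, 23632302 to 23633940) had AtHY5 scores of 63, 682, 115 and 228 and an AtPIF4 event of 2509, among the highest of that list, 139 bp from a member. CYP86A8 (chromosome 2, 18912487 to 18913943) had AtHY5 scores of 139, 125, 1256 and 204, and CYP86A1, the suberin enzyme gene of roots (chromosome 5, 23766273 to 23767789), had 187, 273 and 1046. One member scored far above the others in CYP86A1, CYP86A7 and CYP86A8. The gap between successive centres was 604 bp once in CYP86A7 and once in CYP86A1, and 608 bp once in CYP86A8. These gaps were picked after being seen. The other gaps were 176 and 659 bp in CYP86A7, 713 bp in CYP86A1, and 120 and 529 bp in CYP86A8. In CYP86A7 the gap of 604 bp ended at the strongest member, while in CYP86A1 it lay between the weaker members. No shared spacing is thus shown. The 5 genes are related in sequence and are not independent. None was covered when the largest gap was 500 bp, and 3 were covered by runs formed from the higher-scoring AtHY5 events alone.

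Of all 217 P450 genes, 12 were covered (5.53%), 5 of them CYP86A. Among the others were ROT3 of brassinosteroid synthesis, with a highest AtHY5 score of 815, and FAH1 of lignin synthesis, with 624. Of 19 KCS genes, which act in fatty acid elongation, KCS6 alone was covered. Where all protein-coding genes give 2.25%, 4 of 17 laccase genes were covered (23.5%), LAC5 with a highest score of 157, LAC7 with 797, LAC8 with 487 and its relative AT5G01050 with 515. The runs of LAC8 (14250 to 15430) and AT5G01050 (19031 to 20219) lie close together on chromosome 5. These related genes are not independent. Among abscisic acid genes, 2 of 9 clade A PP2C genes were covered (22.2%), HAI2 with 5 events up to 771 and AHG1 with 3 up to 371, and 1 of 14 receptor genes (7.14%), PYL5, with 3 up to 283 and 3 AtPIF4 events. UNE10, a bHLH gene also known as PIF8, had 3 events up to 342 and 2 AtPIF4 events. Of transcription factor families, counted by name, 4 of 87 NAC genes (4.60%), 3 of 111 MYB genes (2.70%), 1 of 67 WRKY genes (1.49%) and 0 of 31 genes with an Aux/IAA name were covered.

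**Figure D5:**
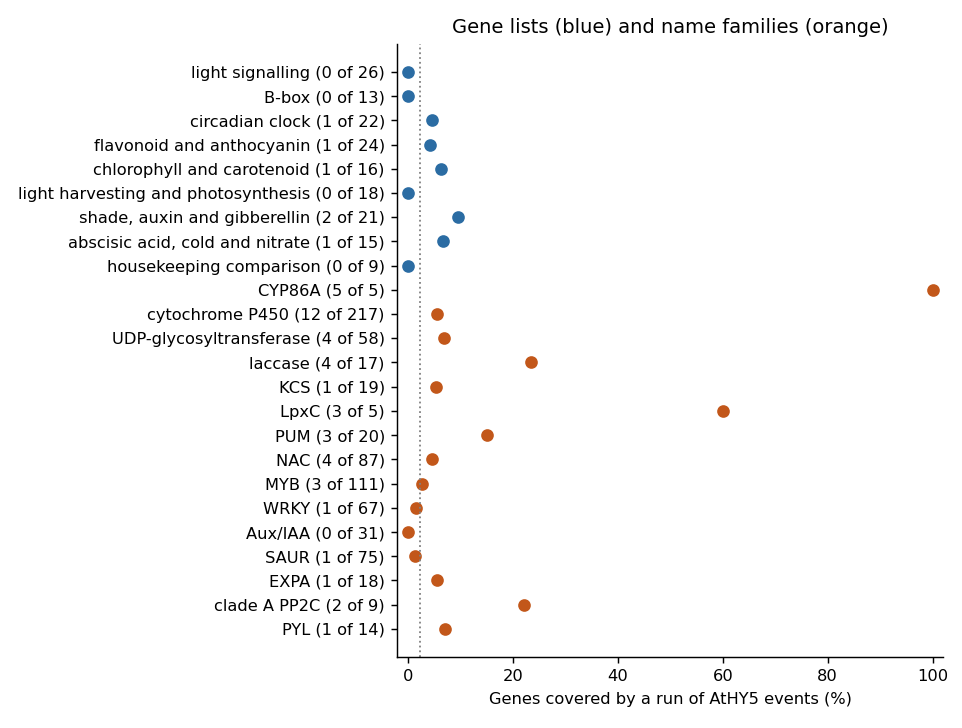
Share of genes (%) covered by a run of AtHY5 events in the gene lists (blue) and in name families chosen after seeing the data (orange), with the counts beside each name. The dotted line is the 2.25% of all protein-coding genes: the lists lie at 0 to 9.52%, and CYP86A stands at 5 of 5.

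Some runs recurred at gene copies. Both loci annotated as HSD1, which encodes a steroid dehydrogenase of seed oil bodies, carried a run of 4 events, the locus AT5G50600 at 20589994 to 20591932 and AT5G50700 at 20623336 to 20625274 of chromosome 5. The starts are 33342 bp apart, and all distances of AtHY5 centres from the first agree to within 1 bp. AtHY5 scores were 429, 161, 177 and 561 at the first locus and 372, 182, 154 and 547 at the second. Each locus had 2 AtPIF4 events, whose distances agreed less closely. They lay 930 and 1821 bp from the first AtHY5 centre at the first locus, and 948 and 1762 bp at the second. Of the 5 LpxC genes, named for an enzyme of lipid A synthesis known from Escherichia coli, LpxC3, LpxC4 and LpxC5 on chromosome 1 each had a run of 3. Their starts are 14378 bp apart in both steps, and the middle events scored 160, 158 and 148. Distances from the first centre differed by up to 259 bp between the first and the second, and by up to 304 bp between the second and the third. The outer events scored 60.1 to 74.5, and an AtPIF4 event, of score 246, was called at LpxC5 alone. No source used here says how the authors placed reads that match more than 1 copy, so these runs are uncertain as separate observations. Equal spacing within a run was rare, with both gaps alike to within 3 bp in 3 runs of 3 events, over AT1G30740, AT2G27660 and HB-8.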

How the data were processed

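The members and gene lists were chosen with earlier results of these data known. Per the submitters' processing notes, the authors used Trim Galore and Bowtie2 with the TAIR10 build. Per the file headers, GEM called the events; versions, filters and the use of the input are not given in the sources used here. The deposited lists give a score per event, whose normalization the authors' files do not state. Inputs and Marchantia samples were not used here.

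Runs, spans and shares were computed with Python 3.11.15, pandas 2.3.3 and scipy 1.17.1, and the steps were tested on simulated data. Intervals are 95% Wilson, Newcombe or exact Poisson, and events that share a library are not replicates, so no p-value is given. Coordinates are 1-based outer limits of the event intervals. Genes came from a RefSeq table of TAIR10.1, whose name differs from the build of the lists, so its coordinates are not printed. As a check, run events lay inside genes in 74.3%, and after shifts of 1000 or 2000 bp in 53.4% to 61.0%. The 177 genes of the 9 lists all matched by identifier.

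Runs named are the 10 with the most AtHY5 events, the 5 with the highest median score, the 5 with the most AtPIF4 centres and the 5 widest, and list members that were covered. Families, gene copies and the genes given with them were chosen after their values were seen. No genome sequence was used here, so the planned promoter motif shares were not run.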

Additional observations from a re-analysis of the deposited data

Results flagged for a closer look

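The regions left out also held runs, which no comparison above used. By the same definition, 40 runs of 3 or more AtHY5 events lay there. They held 136 of 2256 events, or 6.03% (Wilson interval 5.12 to 7.09), and the largest had 6 events. Of these runs, 2 lay in the first 20 kb of chromosome 2.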

How the results depend on the processing

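The number of runs follows their definition. It was 144 with gaps of at most 500 bp, 1129 with 2000 bp, 153 among AtHY5 events above the median score and 135 with 4 or more events. It was 558 over whole chromosomes and 467 with events under 100 bp apart counted once, an alternative chosen after seeing the data. The share of runs with an AtPIF4 centre was 52.8% at 500 bp, 71.9% for AtHY5 events above the median score, 50.4% without widening and 45.8% for AtPIF4 events above the median score. The share of run events near AtPIF4 was 24.2% at 2000 bp, 35.2% above the median AtHY5 score, 20.5% within 50 bp, 34.4% within 200 bp and 19.0% for AtPIF4 events above the median score. Run events stood above single events in each alternative run, with the difference moving to 7.11 points at 2000 bp, 6.73 within 50 bp, 15.1 within 200 bp and 7.47 with close events counted once. Covered genes numbered 136 at 500 bp, 1592 at 2000 bp, 155 above the median AtHY5 score and 818 within 1000 bp of a span. These alternatives change by construction which events or lengths are counted. Promoter motifs were not run. No paired analysis was possible because each protein has 1 library. With unknown depth, an event missing from a list is not shown to be absent.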
